A study of Mus musculus with 3 samples.

Results

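The cells described here are the naive follicular B cells of the mouse aorta. In single-cell RNA-seq libraries of sorted CD45+ aortic cells they were selected on their own counts, as the barcodes that carried at least 1 UMI (unique molecular identifier, a counted transcript) each of Cd79a, Ighd and Fcer2a and no UMI of Csf1r, Csf3r or Cd3e. Barcodes had first to show at least 200 genes and at most 10% of their UMIs in mitochondrial genes. Of 20903 barcodes kept in 3 libraries, 2916 met the rule, namely 535 of 6038 in Ctrl, 2030 of 8155 in the library labelled HHcy and 351 of 6710 in WD. The comparison population, called the other B cells, was the 3598 remaining kept barcodes with Cd79a and Ms4a1 and the same exclusions (1466, 1366 and 766). Throughout, 3 values in a row stand in the order Ctrl, the library labelled HHcy, WD.

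Naive follicular B cells are the recirculating B cells that have left the bone marrow, not yet met antigen and hold IgM together with IgD on their surface. Both heavy chains are made from 1 long transcript by alternative splicing, a step that needs the zinc finger protein Zfp318. The low-affinity IgE receptor CD23 (Fcer2a) and the complement receptor CD21 (Cr2) mark them, while the chemokine receptors CCR7 and CXCR5 guide them into lymphoid follicles. In the aorta B cells lie mostly in the adventitia, the outer layer of the wall, where they share space with B1 cells, which are known as innate-like producers of natural IgM.

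The series compared whole aortas, adventitia included, from 3 groups of mice with 10x Genomics 3' v3 libraries, 1 library per group. All 3 groups, the control included, were labelled with the same ApoE-/- genotype on C57BL/6J, a genotype known to raise plasma cholesterol. Ctrl was the control, HHcy mice drank water with Hcy (homocysteine) added to 1.8 g/L over 4 weeks, and WD mice ate a western diet over 4 weeks. Cells came from enzymatic digestion and a sort for live CD45+ cells. Age, sex and the number of mice pooled per library are not given in the sources used here. With 1 library per group no difference between groups could be tested, and intervals on values of single libraries cover counting error only.

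The libraries held 7512, 9753 and 8557 called barcodes with 66789257, 105180370 and 93164076 UMIs. Between 20 and 24 barcode sequences were shared by any pair of libraries. Apoe, the gene that the label ApoE-/- gives as disrupted in all 3 groups, lies on chromosome 7 (19696109 to 19699188). Coordinates are those of the GENCODE M21 annotation, build GRCm38, also called mm10. Apoe was at 16.3 CPM (UMIs per 1000000) over all called barcodes of Ctrl, 374 in the library labelled HHcy and 19.3 in WD. The library labelled HHcy thus went against the genotype its label gives; which part of Apoe is disrupted is not stated, so a count of its 3' end does not settle the genotype. Among naive follicular B cells Apoe was at 8.15, 49 and 11.6 CPM, and in macrophage barcodes (Csf1r present, Cd79a absent) at 24.4, 764 and 24.0 CPM. Every direction drawn from this library stands beside that mismatch.

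Naive follicular B cells made up a larger part of the B cells in the library labelled HHcy than in the other libraries. Ctrl had 26.7% of its B cells in this population (exact 95% interval 24.8% to 28.7%), WD 31.4% (28.7% to 34.2%) and the library labelled HHcy 59.8% (58.1% to 61.4%). The log2 ratio of these shares was 1.16 (1.05 to 1.27) for the library labelled HHcy over Ctrl, 0.93 (0.80 to 1.06) over WD, and 0.23 (0.07 to 0.40) for WD over Ctrl. Of all kept barcodes they were 8.86% (8.16% to 9.61%), 24.9% (24.0% to 25.8%) and 5.23% (4.71% to 5.79%). WD was the lowest library on this scale and Ctrl the lowest among B cells.

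When each barcode was thinned to 2000 UMIs before the rule was applied, the shares among B cells were 13.6%, 29.4% and 15.5%. The library labelled HHcy stayed highest. The log2 ratio of WD over Ctrl, 0.19, then had an interval from -0.07 to 0.44, so the order of those libraries was not resolved. The place of WD among all kept barcodes depended on the exclusion of Csf1r, Csf3r and Cd3e. Without it the shares were 13.2%, 40.7% and 12.5%, and the log2 ratio of WD over Ctrl moved from -0.76 to -0.08 with an interval from -0.21 to 0.05.

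**Figure D1:**
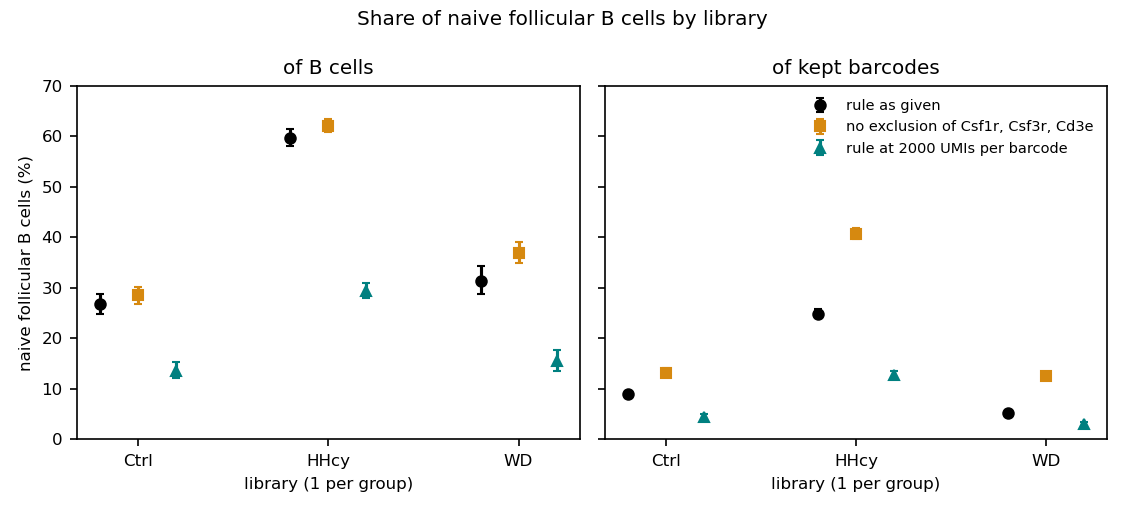
Percentage of naive follicular B cells (y axis) in each of the 3 libraries (x axis), of B cells on the left and of all kept barcodes on the right; bars are exact 95% binomial intervals, which cover counting error only. The library labelled HHcy is highest in each panel under the rule as given (59.8% and 24.9%), without the exclusion of Csf1r, Csf3r and Cd3e, and with the rule applied at 2000 UMIs per barcode. In the right panel WD lies below Ctrl under the rule as given (5.23% against 8.86%) and close to it without the exclusion (12.5% against 13.2%).

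The exclusion removed 262 of 797 barcodes with Cd79a, Ighd and Fcer2a in Ctrl (32.9%), 1289 of 3319 in the library labelled HHcy (38.8%) and 486 of 837 in WD (58.1%), mostly for Csf1r, the macrophage growth factor receptor. Those removed had a median of 14280, 18763 and 20889 UMIs, against 5837, 6243.5 and 5531 for the cells kept by the rule and 8820.5, 7297 and 7829.5 for the other B cells. In all 3 libraries the barcodes kept by the rule were shallower than those removed. At its edge, 38.5%, 33.3% and 41.3% of naive follicular B cells held exactly 1 UMI of Fcer2a and 13.5%, 6.85% and 14.5% exactly 1 of Ighd. Just outside, 42.7%, 60.3% and 40.1% of the other B cells held Ighd without Fcer2a, and 50.8%, 33.2% and 53.3% held neither.

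The genes that chose the cells stood as follows, as a description without a test. Ighd, the constant region of IgD (chromosome 12, 113406604 to 113416324), was at 717 (690.4 to 744), 823 (809 to 837) and 739.6 (705 to 775) CPM with 95% Poisson intervals, against 118, 274 and 149 CPM in the other B cells. Fcer2a, CD23 (chromosome 8, 3681737 to 3694175), was at 352, 354 and 356 CPM against 16.4, 14.7 and 13.8. The median cell held 4, 5 and 4 UMIs of Ighd and 2 of Fcer2a in each library. Cd79a, the signalling chain of the B cell receptor that both populations had to carry, was at 1923, 2082 and 2107 CPM against 1583, 1767 and 1829.8.

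The label was checked on the markers that the rule did not use. After thinning to 2000 UMIs, Cr2 was found in 29.8%, 30.6% and 27.7% of naive follicular B cells, in 7.10%, 13.7% and 7.62% of the other B cells and in 0.559%, 1.29% and 0.383% of T cell barcodes (Cd3e present, Cd79a absent). Unthinned, it was found in 53.8%, 63.1% and 56.4% of naive follicular B cells. Cd55, a brake on complement, was found after thinning in 48.9%, 45.5% and 54.3% of naive follicular B cells, in 30.3%, 33.4% and 33.8% of the other B cells and in 1.61%, 2.65% and 0.997% of macrophage barcodes. The median depth was 7323, 8433 and 10763.5 UMIs for T cell barcodes and 8504, 9147 and 10364 for macrophage barcodes. The thinned shares of Cr2 in naive follicular B cells were above those in T cell barcodes, and those of Cd55 above those in macrophage barcodes, in all 3 libraries. The level of free RNA was not estimated.

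Genes of bone marrow B cell precursors were at or near 0. Rag1, Rag2 and Igll1, used for receptor rearrangement and the surrogate light chain, had no UMI in any naive follicular B cell of the 3 libraries, which allows up to 3 UMIs in each library. Dntt, a polymerase of the same stage, had 1, 8 and 0 UMIs in all and Vpreb1, a part of the surrogate light chain, 2, 4 and 2. Of the 4 genes of the immature B cell list that were measured deeply enough to test, Cd24a was lower than in the other B cells, at -0.26 (SE 0.06, edgeR adjusted p = 0.0115), and Vpreb3, Sox4 and Cd93 did not pass the test.

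Each library gave both populations, so the populations were compared on UMIs summed per library, with the library as a block (edgeR quasi-likelihood test, Benjamini-Hochberg adjustment, threshold 0.05). The 3 libraries are also the 3 treatments, so the p-values read whether a difference recurred across them. The same cells' Ighd and Fcer2a drew the line between the populations, and genes that vary with those 2 were bound to follow. Of 11366 genes tested, 1473 (13%) were higher and 1702 (15%) lower in naive follicular B cells, 27.9% in either direction, and the median log2 fold change over all genes was 0.00. DESeq2 called 628 higher and 847 lower, the fit without the library block 660 and 786, and the fit at 2000 UMIs per cell 521 and 694.

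Of the 14 genes of the follicular list, 10 rose, 2 fell and 2 did not pass, with a median log2 fold change of 0.66. Cr2 (chromosome 1, 195136811 to 195176716) was at 195 (181 to 209), 197 (190.2 to 204) and 165 (149 to 183) CPM in naive follicular B cells and at 34.6, 63.1 and 36.7 in the other B cells, a log2 fold change of 2.05 (SE 0.12, edgeR adjusted p = 7.09e-07). Naive follicular B cells were higher in every library, and the other B cells of the library labelled HHcy came closest to them. Bach2, a repressor that holds B cells in the naive state, was at 233, 217 and 255 CPM against 89, 118 and 109, a log2 fold change of 1.13 (SE 0.08, edgeR adjusted p = 2.74e-06). Ccr7, the receptor for the lymphoid chemokines CCL19 and CCL21, was at 592, 413 and 640.4 against 268, 248 and 332, a log2 fold change of 0.92 (SE 0.07, edgeR adjusted p = 3.49e-06). Both genes were higher in naive follicular B cells in every library.

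Other genes of the list that rose were Cd55 (0.95), Btla, an inhibitory receptor (0.92), Fcmr, the Fc receptor for IgM (0.73), Ebf1, a factor of B cell identity (0.59), Ltb, which organises lymphoid tissue (0.45), and Foxp1 (0.19). The 2 that fell were Klf2, a factor that keeps lymphocytes quiescent, at 698, 708 and 646 CPM against 1111, 963 and 1216 (log2 fold change -0.70, SE 0.08, edgeR adjusted p = 1.05e-04), and Cxcr5, the follicle-homing receptor, at 144, 120.1 and 144 against 196, 166 and 204 (log2 fold change -0.49, SE 0.06, edgeR adjusted p = 7.95e-05). Tnfrsf13c, the BAFF receptor, was at 169.9, 127 and 158 against 145, 138 and 170.3 CPM and S1pr1, the egress receptor, at 204, 131 and 166 against 216, 139.8 and 211; neither passed. Within the list, Klf2 and Cxcr5 thus went against the sign of Cr2.

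Across all genes at 50 CPM or more, the 12 with the largest rise were Cr2, Icosl, Neurl3, Zfp318, Satb1, Pxdc1, Gpr174, Lrrk2, Tmem108, Zfp608, Sh2d2a and Ms4a4c. Icosl, the ligand through which B cells engage ICOS on helper T cells (chromosome 10, 78069302 to 78083913), was at 52.1, 66.9 and 58.2 CPM against 13, 24.9 and 12.8, a log2 fold change of 1.77 (SE 0.13, edgeR adjusted p = 2.58e-06). Zfp318, the protein needed for the long transcript of IgD (chromosome 17, 46383731 to 46420920), was at 186, 209 and 172 against 46.9, 77 and 53.8, a log2 fold change of 1.67 (SE 0.09, edgeR adjusted p = 2.82e-07). Satb1, a chromatin organiser (chromosome 17, 51736187 to 51833290), was at 575, 656 and 555 against 140.2, 276 and 165, a log2 fold change of 1.64 (SE 0.11, edgeR adjusted p = 1.59e-06). Every library placed naive follicular B cells above the other B cells for these genes.

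Neurl3, a ubiquitin ligase (chromosome 1, 36264597 to 36274679), was at 179.6, 226 and 172 CPM against 41.8, 90.1 and 48.9, a log2 fold change of 1.70 (SE 0.11, edgeR adjusted p = 1.47e-06). Gpr174, a receptor for lysophosphatidylserine, had a log2 fold change of 1.64, Lrrk2, a kinase known from Parkinson's disease, 1.52, and Sh2d2a, a T cell adaptor, 1.39. Pxdc1 (1.64), Tmem108 (1.46), Zfp608 (1.44) and Ms4a4c (1.35) completed the 12. At 2000 UMIs per cell Zfp318 was found in 33%, 35.2% and 32.7% of naive follicular B cells and in 12.5%, 17.8% and 12.7% of the other B cells.

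**Figure D2:**
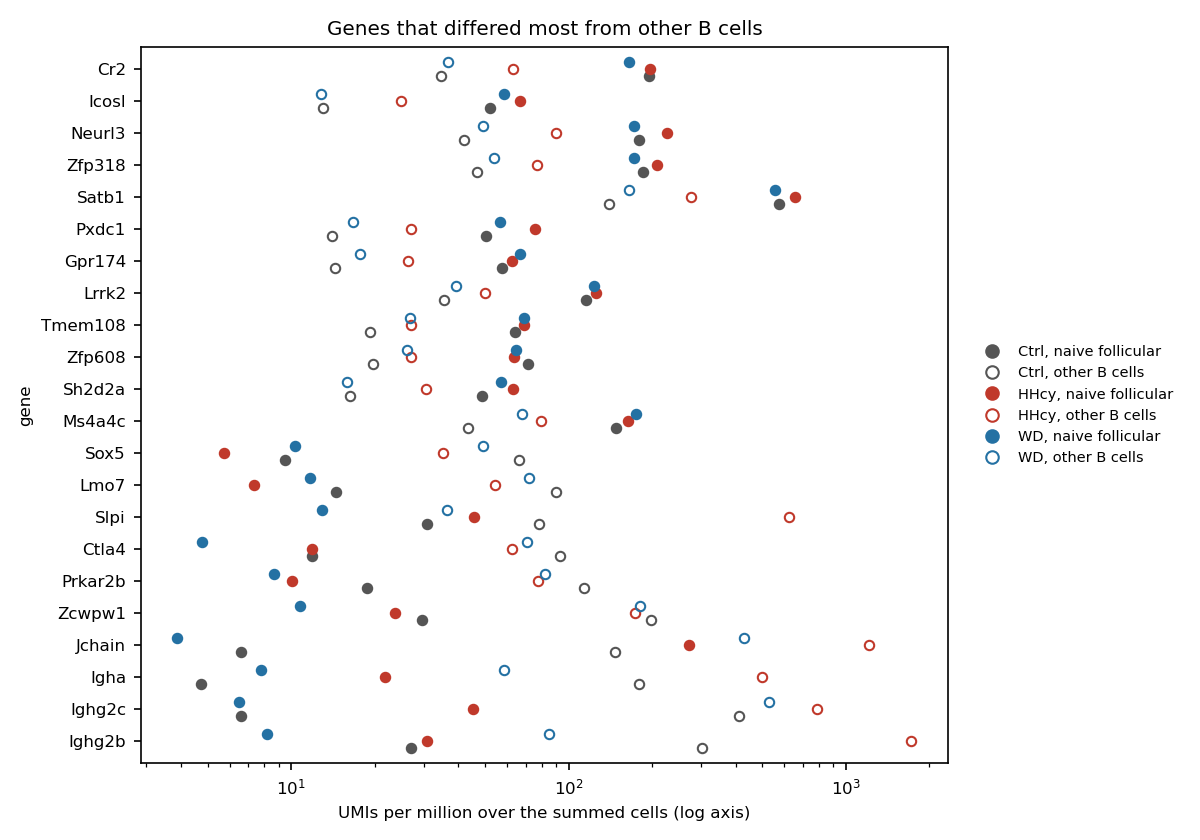
CPM summed over cells (log axis) for the 22 genes that differed most between naive follicular B cells (filled) and other B cells (open), 1 point per library and population. Filled points lie to the right of open points of the same library for the 12 upper genes and to the left for the 10 lower ones; for Jchain and the switched isotypes the library labelled HHcy lies to the right of the other libraries in both populations.

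IgM was the leading heavy chain of naive follicular B cells. A B cell that has switched isotype no longer carries the Ighd segment, and the rule asks for a UMI of Ighd, so the choice of cells in itself lowers the share of switched isotypes and raises that of Ighd. The shares are given here as a description. Of the 8 heavy-chain constant genes, Ighm was highest in 96.3% of the cells in Ctrl, 95.7% in the library labelled HHcy and 94.9% in WD, and Ighd in 3.55%, 4.09% and 4.84%. Switched isotypes outnumbered Ighm and Ighd in 1 of 535, 4 of 2030 and 1 of 351 naive follicular B cells (0.187%, 0.197% and 0.285%, with exact upper limits of 1.04%, 0.504% and 1.58%). Among the other B cells this share was 4.57%, 4.54% and 3.39%. Ighd exceeded Ighm in 0.546%, 1.46% and 0.914% of the other B cells.

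All 10 immunoglobulin constant genes tested fell against the other B cells, with a median of -1.16. Ighm (chromosome 12, 113418558 to 113422730) was at 3343, 3677 and 3545 CPM against 4727, 6848 and 6058, a log2 fold change of -0.75 (SE 0.07, edgeR adjusted p = 1.74e-05). Ighg2b was at 27.1, 30.8 and 8.19 against 302, 1723 and 84.7, a log2 fold change of -4.88 (SE 0.38, edgeR adjusted p = 4.70e-06). Igha was at 4.73, 21.8 and 7.76 against 179.9, 500.1 and 58.3, a log2 fold change of -4.49 (SE 0.19, edgeR adjusted p = 8.52e-08). Ighg2c, with -4.81, lay between those 2 in size of fall. The falls of the switched isotypes, too, are partly set by the rule's demand for Ighd. The summed levels do not count cells: Ighg2b was the highest heavy chain in 37 of 1462, 23 of 1364 and 11 of 763 other B cells with a heavy chain UMI (2.53%, 1.69% and 1.44%), with the highest share in Ctrl, while its summed level was highest in the library labelled HHcy.

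The kappa light chain led in most cells. Lambda UMIs exceeded kappa UMIs in 9.35% of naive follicular B cells in Ctrl (7.02% to 12.1%), in 9.69% in WD (6.80% to 13.3%) and in 6.41% where the label was HHcy (5.38% to 7.56%), against 13.3%, 10.5% and 13.9% of the other B cells in the usual order. A UMI of a heavy-chain variable gene was found in only 14.4%, 16.1% and 13.1% of naive follicular B cells, and 3' libraries seldom reach that end of the transcript. Among these the commonest variable gene took 6 of 77 cells in Ctrl, 21 of 327 in the library labelled HHcy and 4 of 46 in WD, that is 7.79%, 6.42% and 8.70%. A different gene led in each library: Ighv3-6, Ighv1-26 and Ighv10-3.

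The B1 list showed the opposite sign to the follicular list: all 12 genes fell, with a median of -1.83. S100a6, a calcium-binding protein of the list, was at 422, 216 and 336 CPM against 2427, 1263 and 1972, a log2 fold change of -2.57 (SE 0.05, edgeR adjusted p = 3.15e-10). Zbtb32, a repressor of B cell responses, was at 11.8, 8.09 and 7.76 against 63.2, 42.2 and 69.8, a log2 fold change of -2.56 (SE 0.13, edgeR adjusted p = 2.50e-07). Ctla4, a checkpoint receptor, was at 11.8, 11.9 and 4.74 against 93.2, 62.3 and 70.8, a log2 fold change of -2.78 (SE 0.17, edgeR adjusted p = 8.07e-07). Bhlhe41, a factor needed for B1a cells, fell by 1.97 on the log2 scale and Cd5 by 1.51. Cd5 was scarce in both populations, at 1.84, 1.46 and 2.59 CPM in naive follicular B cells.

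Of 7 marginal zone genes tested, 4 fell and 2 rose. Cd1d1, the lipid-presenting molecule, rose by 0.58 (SE 0.18, edgeR adjusted p = 0.0358) and Notch2, the receptor that drives marginal zone fate, by 0.49 (SE 0.07, edgeR adjusted p = 3.91e-04), while Mzb1, S1pr3, Plac8 and Cd9 fell. Of 7 germinal centre genes 4 fell and none rose; S1pr2, a receptor that confines cells to the follicle centre, had -1.31, Mef2b, a transcription factor, -1.61 and Rgs13, a regulator of chemokine signals, -1.04. Bcl6 was at 31.8, 21.9 and 25 against 28.5, 20.8 and 21.6 and did not pass. Of 8 memory genes, Cd80 (-2.37), Nt5e (-1.40), Fcrl5 (-1.20) and Cxcr3 (-1.65) fell.

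Of 8 plasma cell genes 6 fell, among them Prdm1, the plasma cell regulator (-2.48), and Xbp1 (-0.98). The fall of Jchain, the joining chain of IgM and IgA, at 6.57, 272 and 3.88 CPM against 147, 1208 and 429 (log2 fold change -3.28, SE 0.44, edgeR adjusted p = 2.85e-04), did not hold without barcodes carrying 3 or more markers of another lineage, where its log2 fold change was 0.26. Of 12 cell cycle genes 11 fell, with a median of -1.03; Mki67 was at 34.7, 28.3 and 9.06 CPM against 47.9, 86.2 and 39.9 (log2 fold change -1.30, SE 0.20, edgeR adjusted p = 6.56e-04), and Mcm2 did not pass. These falls are of summed UMIs. By cell, the cell cycle list took a median of 0% of the UMIs in both populations of every library. The 90th percentile was 0.0226%, 0.0192% and 0.0260% in naive follicular B cells against 0.0226%, 0.0214% and 0.0241%, so most cells did not show the fall. After thinning, Mki67 was found in 1.70%, 0.938% and 1.16% of naive follicular B cells and in 9.50%, 10.3% and 12.6% of T cell barcodes. The list median of the plasma cell genes was -1.57, and without the library labelled HHcy it was -0.80.

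The remaining genes with the largest fall at 50 CPM or more were Zcwpw1, Prkar2b, Slpi, Lmo7 and Sox5. Zcwpw1, a histone methylation reader known from meiosis, was at 29.7, 23.6 and 10.8 CPM against 198, 173 and 180.4, a log2 fold change of -3.04 (SE 0.15, edgeR adjusted p = 2.04e-07). Prkar2b, a regulatory subunit of protein kinase A, was at 18.7, 10.1 and 8.63 against 113, 77.6 and 81.9, a log2 fold change of -2.89 (SE 0.10, edgeR adjusted p = 2.32e-08). Sox5, a transcription factor, was at 9.47, 5.73 and 10.4 against 66.5, 35.3 and 49.1, a log2 fold change of -2.62 (SE 0.12, edgeR adjusted p = 1.19e-07). Lmo7 had -2.77 and Slpi, a secreted protease inhibitor, -2.77; Slpi was far higher in the other B cells of the library labelled HHcy (77.9, 624 and 36.3 CPM) than in those of the other libraries.

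**Figure D3:**
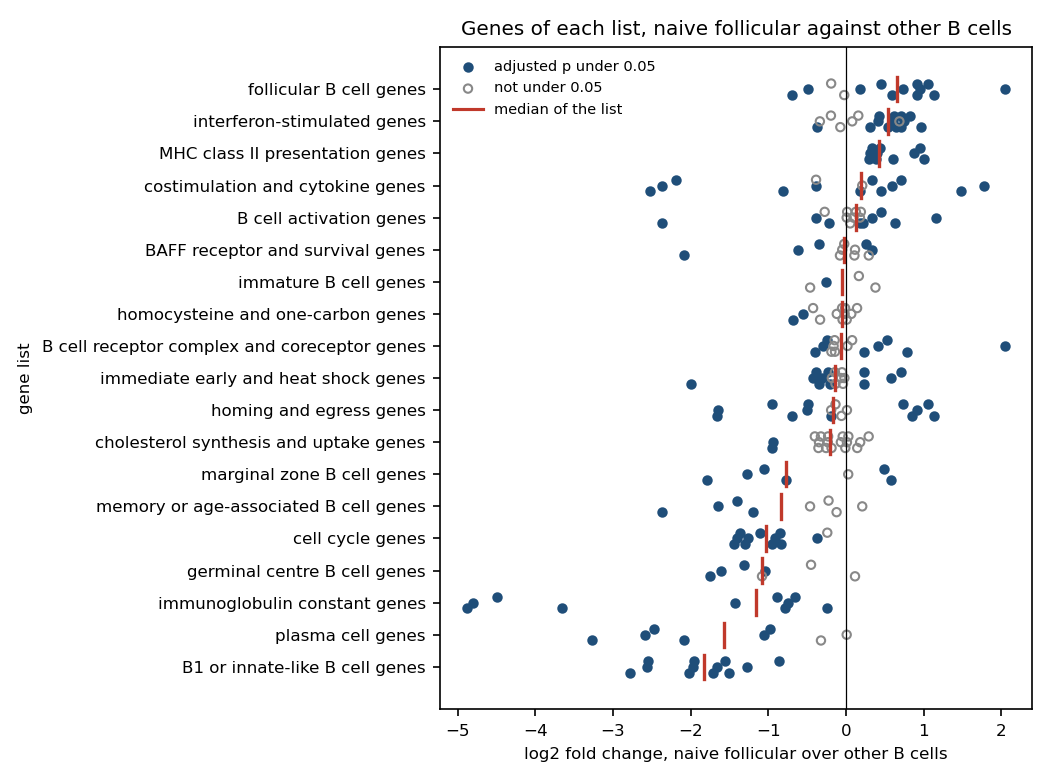
Log2 fold change of each tested gene (points, x axis) between naive follicular B cells and other B cells, by gene list (y axis); filled points had an edgeR adjusted p under 0.05 and the red bar is the list's median. All MHC class II genes lie to the right of 0 and all B1 genes to the left, while the homing and costimulation lists spread to both sides.

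The MHC class II genes, through which B cells show peptides to CD4 T cells, rose as a list: 10 of 10 passed, with a median of 0.42 beside 0.00 for all genes. H2-Aa, the I-A alpha chain (chromosome 17, 34282744 to 34287823), was at 3748 (3686 to 3809.6), 4631 (4598 to 4665) and 4077 (3995 to 4160.1) CPM against 2896, 3294 and 3059, a log2 fold change of 0.40 (SE 0.06, edgeR adjusted p = 3.54e-04). Cd74, the invariant chain, was at 10507, 12614 and 10982 against 8395, 9828 and 8881, a log2 fold change of 0.31 (SE 0.06, edgeR adjusted p = 0.00230). H2-Oa and H2-Ob, the subunits of the brake on peptide loading that B cells use, had 1.01 and 0.88. Ciita, the coactivator of the whole set, was at 185, 212 and 192 against 89, 113 and 97.6, a log2 fold change of 0.95 (SE 0.06, edgeR adjusted p = 7.67e-07). Each gene was higher in naive follicular B cells than in the other B cells of the same library.

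The promoters of these genes were searched for the conserved Y box of MHC class II genes (CTGATTGG, both strands), an inverted CCAAT element. They are shown because the set rose together. The RefSeq promoters of GRCm38.p6, from 250 bases before to 50 after the gene start, covered 7 of the 10 genes; H2-Ab1, Cd74 and Ciita had none. In 3 genes the promoter held the full motif, shown in capitals in the promoters printed here, 5′ to 3′ on the strand of the gene: H2-Aa (minus strand, chr17:34287774-34288073), H2-Eb1 (plus strand, chr17:34305617-34305916) and H2-Oa (plus strand, chr17:34092129-34092428).
H2-Aa: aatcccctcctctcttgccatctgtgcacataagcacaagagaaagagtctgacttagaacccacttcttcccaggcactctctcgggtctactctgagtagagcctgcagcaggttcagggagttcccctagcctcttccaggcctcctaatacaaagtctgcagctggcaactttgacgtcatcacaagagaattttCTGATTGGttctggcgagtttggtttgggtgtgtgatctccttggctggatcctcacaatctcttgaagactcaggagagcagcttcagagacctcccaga
H2-Eb1: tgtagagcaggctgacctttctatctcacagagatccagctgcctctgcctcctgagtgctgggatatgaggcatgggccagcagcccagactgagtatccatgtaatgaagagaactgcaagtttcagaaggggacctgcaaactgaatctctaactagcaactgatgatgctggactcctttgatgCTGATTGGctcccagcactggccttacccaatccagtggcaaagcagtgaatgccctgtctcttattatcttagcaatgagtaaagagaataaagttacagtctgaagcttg
H2-Oa: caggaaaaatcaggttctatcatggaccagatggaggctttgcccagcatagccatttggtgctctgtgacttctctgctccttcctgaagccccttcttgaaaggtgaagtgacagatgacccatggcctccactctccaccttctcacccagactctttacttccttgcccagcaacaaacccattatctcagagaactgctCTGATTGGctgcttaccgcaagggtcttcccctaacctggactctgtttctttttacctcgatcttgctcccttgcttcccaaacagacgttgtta
The motif lay 51, 62 and 46 bases before the gene start, and 4.1% of 32851 RefSeq promoters held it. The core of the motif alone (GATTGG, both strands), which overlaps it, was in at least 1 listed promoter of 7 of 7 genes and in 16.1% of all promoters. The octamer ATGCAAAT, known from immunoglobulin promoters, was in 0 of 7 genes and in 1.74% of all promoters. A match describes the letters and not a bound site.

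Genes of B cell activation went both ways. Of 17, 6 rose, 3 fell and 8 did not pass, beside 13% higher and 15% lower over all genes. The count of falls is near that share and does not set the list apart. Egr3, an early transcription factor downstream of the antigen receptor, was at 179.6, 114 and 161 CPM against 65.2, 68.3 and 59.5, a log2 fold change of 1.16 (SE 0.11, edgeR adjusted p = 2.44e-05). The chemokines Ccl3 (0.63) and Ccl4 (0.45), with Cd69, Cd86 and Cd40, rose too. Cd80, a costimulatory ligand, was at 6.31, 4.59 and 6.04 against 35.6, 22.8 and 28.8, a log2 fold change of -2.37 (SE 0.12, edgeR adjusted p = 2.82e-07). Nr4a1, a gene induced by antigen receptor signals, was at 831, 475 and 695 against 708, 507 and 552 and did not pass.

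Of 18 immediate early and heat shock genes, which respond to tissue digestion as well as to signals, 4 rose and 7 fell. Over all genes 13% rose and 15% fell. Atf3, a stress-induced factor, was at 256, 113 and 189.8 CPM against 888, 440.0 and 849, a log2 fold change of -1.99 (SE 0.07, edgeR adjusted p = 2.51e-08), and Hspa1a, an inducible heat shock protein, at 76.3, 32.2 and 81.5 against 42.5, 25.5 and 38.4, a log2 fold change of 0.71 (SE 0.11, edgeR adjusted p = 9.41e-04). Of 14 costimulation and cytokine genes 7 rose and 5 fell. Beside Icosl and Cd80 these included Il10, the anti-inflammatory cytokine, at 6.84, 4.90 and 9.06 against 25.5, 42.5 and 28.1 (log2 fold change -2.53, SE 0.22, edgeR adjusted p = 1.14e-05), Cd274, PD-L1 (-0.81), and Tnf, which rose by 0.59 on the log2 scale. Il6 rose with an adjusted p of 0.0119 by edgeR at only 4.47, 2.10 and 2.16 CPM.

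Among 14 receptor and coreceptor genes that the rule had not used, 5 rose, among them Cr2, Cd72, Cd22 and Btk, and 3 fell (Siglecg, Blk and Cd79b). Cd72, an inhibitory coreceptor, was at 217, 241 and 277 CPM against 106, 152 and 166, a log2 fold change of 0.79 (SE 0.07, edgeR adjusted p = 1.17e-05), and Siglecg, an inhibitory lectin that is prominent on B1 cells, at 195, 192 and 215 against 274, 231 and 278, a log2 fold change of -0.39 (SE 0.06, edgeR adjusted p = 9.79e-04). Of 16 homing and egress genes 5 rose and 7 fell. Ccr6, a receptor for CCL20, was at 74.9, 113 and 81.1 against 28.5, 57.9 and 35.4, a log2 fold change of 1.14 (SE 0.08, edgeR adjusted p = 2.79e-06), and Cxcr4 and Gpr183 had 0.85 and 0.73. Cd44 (-0.96) and the integrin chain Itgb1 (-1.67) fell. Of 11 BAFF receptor and survival genes 2 rose, Bcl2 (0.33) and Nfkb2 (0.25), and 3 fell, Tnfrsf13b, Tnfrsf17 and Mcl1. Over all genes 13% rose and 15% fell, so these few calls do not set the BAFF list apart. Nor do the 3 falls among the 14 receptor and coreceptor genes set that list apart.

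Interferon-stimulated genes were higher in naive follicular B cells for 12 of 19 and lower for 1, Bst2, with a median of 0.54. Irf7, a regulator of the interferon response, was at 32.1, 36.7 and 63.8 CPM against 15.5, 22.1 and 36, a log2 fold change of 0.83 (SE 0.09, edgeR adjusted p = 7.60e-05). Ifit2, an antiviral RNA-binding protein, was at 6.31, 7.83 and 15.5 CPM against 3.26, 3.92 and 7.77, a log2 fold change of 0.97 (SE 0.18, edgeR adjusted p = 0.00243). Isg15 was at 16.6, 12 and 19.8 against 9.78, 12.4 and 25.2 and did not pass. Of 18 genes of cholesterol synthesis and uptake none rose and 2 fell, among them Cyp51 (-0.96). Of 12 homocysteine and one-carbon genes tested none rose and 2 fell, Shmt2 (-0.69) and Mthfd1 (-0.55). Beside 13% higher and 15% lower over all genes, the counts of the cholesterol and one-carbon lists do not set them apart. Bhmt, which remethylates homocysteine in liver, had no UMI in these cells, and Cbs and Cth, which break it down, had 1, 1 and 0 UMIs each.

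Markers of other cell types were present at low levels. The 10 macrophage or monocyte markers summed to 586, 416 and 749.5 CPM in naive follicular B cells, 303, 534 and 552 in the other B cells and 13078, 18032 and 16916 in macrophage barcodes, with none of the 10 at 0. In naive follicular B cells 5 of them were higher than in the other B cells, Lyz2, C1qa, C1qb, C1qc and Cd14, and Ly6c2 was lower. The 11 T cell markers summed to 28.7, 42.8 and 47 CPM against 2764, 4225 and 2343 in T cell barcodes, and none of the 9 tested was called. In all, 3 or more markers of 1 other lineage were found in 21.1%, 28.1% and 40.7% of naive follicular B cells and in 23.9%, 34.1% and 42.8% of the other B cells. The part of these transcripts in the differences between the populations was not tested.

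Between libraries, values were compared as ratios of CPM over naive follicular B cells, and a gene counted as past the fold when the ratio was at least 1.5 either way, its exact 95% interval left out 1 and at least 20 UMIs were counted over both libraries. The library labelled HHcy against Ctrl had 264 genes higher (2.37%) and 707 lower (6.35%) of 11132, or 8.72% either way. WD against Ctrl had 223 higher (2.35%) and 248 lower (2.61%) of 9486, or 4.97%. The library labelled HHcy against WD had 198 higher (1.79%) and 612 lower (5.54%) of 11040, or 7.34%. TMM scaling shifted all log2 ratios of the library labelled HHcy by 0.11 over Ctrl and by 0.12 over WD, and those of WD over Ctrl by -0.01; the first comparison then had 408 higher and 466 lower. The comparisons share libraries and are not independent of each other.

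The MHC class II list stood higher in the naive follicular B cells of the library labelled HHcy than in Ctrl, though 0 of its 10 genes passed the fold. Its median log2 ratio was 0.34 beside -0.07 for all genes, and 0.45 with TMM scaling. Cd74 was at 10507, 12614 and 10982 CPM and H2-Ab1 at 2807, 3677 and 3228, with log2 ratios over Ctrl of 0.26 (0.25 to 0.28) and 0.39 (0.36 to 0.42). The share of a cell's UMIs taken by the list had a median of 2.23%, 2.78% and 2.44%, with quartiles of 1.78%, 2.41% and 1.99% and of 2.67%, 3.12% and 2.81%. The lower quartile of the library labelled HHcy, 2.41%, lay above the median of Ctrl, 2.23%. In the other B cells the list's median log2 ratio was 0.30, and in macrophage barcodes -0.08.

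Activation and immediate early genes stood lower in the library labelled HHcy. Of 17 activation genes 8 passed the fold downwards and 0 upwards, with a median of -0.57 (-0.46 with TMM scaling), and of 18 immediate early and heat shock genes 8 did and 0 upwards, with a median of -0.44 (-0.32). Nr4a1 was at 831, 475 and 695 CPM, a log2 ratio over Ctrl of -0.81 (-0.87 to -0.75). Nfkbid, an inhibitor of NF-kappa B induced by receptor signals, was at 239.5, 115 and 208 CPM, a log2 ratio of -1.06 (-1.18 to -0.95), and Fosb at 650.5, 343 and 653 CPM, a log2 ratio of -0.92 (-0.99 to -0.86). The library labelled HHcy was lowest for these 3 genes, and Ctrl and WD were nearly level for Fosb. The medians of the 2 lists in its other B cells were -0.26 and -0.15, and in macrophage barcodes -0.20 and -0.18. Macrophage barcodes held both lists at higher levels, with 11992 and 24046 CPM in Ctrl against 4016 and 10537 in naive follicular B cells. By summed UMIs, macrophage markers were also lower in the naive follicular B cells of the library labelled HHcy than in those of Ctrl. Of 10, 3 passed the fold downwards and 0 upwards, with a median of -0.38. Of the 4 dendritic cell markers with enough UMIs, 3 were lower too. The median cell went the other way, with 0.0246% of its UMIs in macrophage markers in Ctrl and 0.0285% in the library labelled HHcy. The 90th percentile was 0.0854% and 0.0732%. Without barcodes that held 3 or more markers of another lineage the medians of the 2 lists were -0.43 and -0.39. The part of macrophage transcripts in the lower lists was not tested.

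Genes of cholesterol synthesis and uptake were lower in the library labelled HHcy than in Ctrl for 8 of 18 and higher for 0, with a median of -0.56 (-0.45 with TMM scaling). In WD 2 of 17 were lower than in Ctrl, Cyp51 and Insig1, with a median of -0.36. Cyp51, the lanosterol demethylase, was at 28.1 (23.1 to 34), 14.3 (12.5 to 16.3) and 15.1 (10.5 to 21) CPM. Insig1, which retains the SREBP complex when sterols are plentiful, was at 34.4 (28.8 to 40.9), 19 (16.9 to 21.3) and 18.1 (13.1 to 24.5) CPM. Ctrl was the highest library for both genes.

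Abcg1, which exports cholesterol from cells, showed another order, at 113 (102 to 124), 143 (137 to 149) and 204 (186 to 223) CPM, with WD highest and Ctrl lowest. Its log2 ratio over Ctrl was 0.86 (0.67 to 1.05) in WD and 0.34 (0.19 to 0.50) in the library labelled HHcy. It was found in 48.2, 59.2 and 63.2% of the cells. After thinning, Abcg1 was found in 22.8%, 25.6% and 35.5% of naive follicular B cells and in 9.50%, 15.5% and 21.8% of T cell barcodes, in the same order of libraries; the part of free RNA in the order was not tested. The other B cells had 72.7, 93.1 and 139 CPM, the same order of libraries.

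The one-carbon list, which includes the enzymes that use homocysteine, had 0 of 12 genes past the fold in the library labelled HHcy against Ctrl and a median of -0.02. Over all genes 8.72% passed, with a median of -0.07, so a count of 0 in a list of 12 does not set it apart. Mtr, methionine synthase, was at 16.6, 13.2 and 9.92 CPM, Mat2a, which makes S-adenosylmethionine, at 168, 132 and 169, and Ahcy, which releases homocysteine, at 6.31, 5.80 and 6.04. Dnmt1, the maintenance methyltransferase, was at 26.3, 27.8 and 25.9. The interval of Ahcy over Ctrl, -0.12 (-0.78 to 0.59), leaves room for a change of 1.5-fold in either direction, and that of Mat2a, -0.34 (-0.47 to -0.21), does not.

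Interferon-stimulated genes stood higher in WD than in the other libraries. Of 19 genes 4 passed the fold above Ctrl and 0 below, with a median of 0.36, and against WD the library labelled HHcy had 10 of 19 lower, with a median of -0.61. Irf7 was at 32.1 (26.6 to 38.3), 36.7 (33.8 to 39.8) and 63.8 (54 to 75) CPM. Ifi27l2a was at 1061, 1059 and 1567 CPM and Bst2, tetherin, at 77.6, 95 and 122. The list took a median of 0.132%, 0.138% and 0.203% of a cell's UMIs. The ratio of WD over Ctrl had a median of 0.90 in the other B cells and 0.39 in macrophage barcodes. In WD 5 of 10 macrophage markers were also past the fold above Ctrl in naive follicular B cells, with a median of 0.56, and their part in the interferon genes was not tested.

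**Figure D4:**
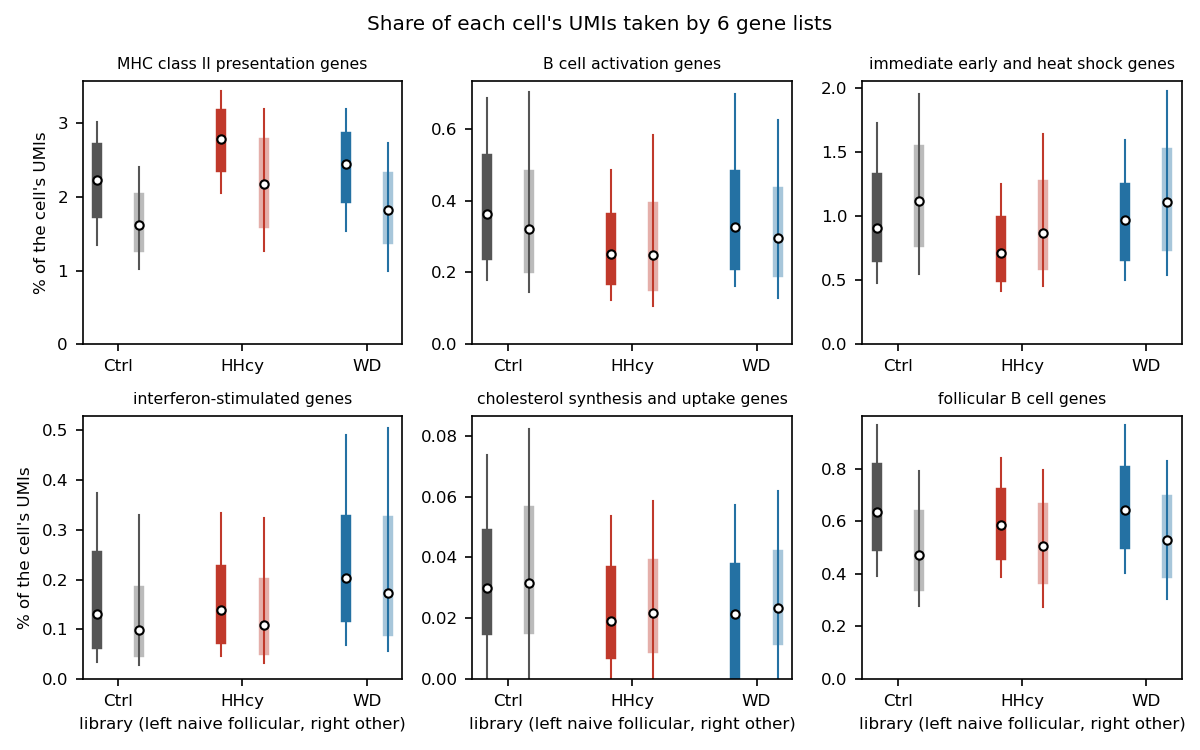
Percentage of each cell's UMIs (y axis) taken by 6 gene lists in the 3 libraries (x axis), for naive follicular B cells (left, dark) and other B cells (right, pale); thick bars span the quartiles, thin bars the 10th to 90th percentile of cells, and the circle is the median. The MHC class II list is highest in the library labelled HHcy (median 2.78%), the interferon list in WD (0.203%) and the cholesterol list in Ctrl (0.0299%).

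Among single genes with the largest ratios at 50 CPM or more and found in at least 5% of cells, several were spread over many cells. Hs3st1, a heparan sulfate sulfotransferase, was at 76.5, 133 and 89.7 CPM and found in 32.3, 51.9 and 33.3% of the cells, a log2 ratio of the library labelled HHcy over Ctrl of 0.79 (0.62 to 0.98). Chchd10, a mitochondrial protein, had 0.75 (0.60 to 0.91), Cirbp, a cold-inducible RNA-binding protein, 0.67 (0.51 to 0.82), and Ntan1, an amidase, 0.64 (0.38 to 0.91). Without the 2% of cells with the most UMIs of each gene these ratios were 0.90, 0.75, 0.72 and 0.71. The ratios in the other B cells were 0.39, 0.70, 0.79 and 0.40.

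Genes lower in the library labelled HHcy than in Ctrl included Ahnak, a scaffold protein, at 293 (276 to 311), 116 (110.5 to 121) and 177 (160.1 to 195) CPM, a log2 ratio of -1.34 (-1.45 to -1.23). Lmna, lamin A/C, was at 97.5, 39.9 and 59.1 CPM, a log2 ratio of -1.29 (-1.48 to -1.10), Myadm, a membrane raft protein, at 98.6, 28.9 and 50.03, a log2 ratio of -1.77 (-1.97 to -1.57), and the predicted gene Gm47283 at 272, 103 and 208, a log2 ratio of -1.40 (-1.52 to -1.29). Ctrl was highest for all 4 and WD lay between. The annotation places Gm47283 on chromosome Y (90784738 to 90816464). The sex of the pooled mice is not given, and whether the level of this gene follows sex could not be tested. Tppp3 and E330020D12Rik, with -1.75 and -1.30, were lower too. Ahnak, Lmna and Myadm were also lower in naive follicular B cells than in the other B cells, with edgeR adjusted p of 1.28e-07, 7.92e-09 and 3.49e-06 and log2 fold changes of -1.78, -2.07 and -1.53. Ahnak was at 811, 434 and 663 CPM in the other B cells. Hspa1b, at 73.4, 23.3 and 56.5 CPM, had 67.4% of its Ctrl UMIs in 10 cells.

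WD exceeded Ctrl in AY036118, a transcript known by its clone, at 205, 300.2 and 461 CPM (log2 ratio 1.17, interval 1.03 to 1.30), Rbm4b, an RNA-binding protein (log2 ratio 1.02, interval 0.64 to 1.40), and Iglc1, a lambda constant gene (log2 ratio 0.85, interval 0.73 to 0.96), beside Irf7 and Abcg1. Crip1, a LIM domain protein, was lower, at 1439.8, 708 and 790.1 CPM (log2 ratio -0.87, interval -0.94 to -0.79), as were Rassf4 (log2 ratio -0.88, interval -1.28 to -0.50), Myadm (log2 ratio -0.98, interval -1.29 to -0.67) and Tppp3 (log2 ratio -1.18, interval -1.58 to -0.78). Crip1 had 25.2% of its Ctrl UMIs in 10 of 535 cells. Without the 2% of cells with the most UMIs of the gene its ratio was -0.96, and AY036118 stood at 1.19.

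Other large ratios rested on a few cells. In the library labelled HHcy 1 cell held 5710 of 5997 UMIs of Ighg3, an IgG heavy chain, and 10 cells held 94.1% of those of Jchain. The log2 ratios of Ighg3 and Jchain over Ctrl, 5.92 and 5.37, thus describe a handful of cells with plasma cell transcripts that met the rule. Igkc had 18438 UMIs in 1 cell of that library, 36.8% of its UMIs in 10 cells, and a median of 29, 37 and 30 UMIs per cell; its ratio over Ctrl was 0.85 with those cells and 0.23 without the top 2%. In macrophage barcodes the Igkc ratio was 2.34. Gsn, an actin-severing protein, had 1 cell with 209 of 920 UMIs, and its ratio of 0.74 was 0.45 without the top 2%. Mast cell markers summed to 279, 4.14 and 6.04 CPM and were thus mostly in Ctrl; red cell markers summed to 15.2, 405 and 22 CPM and were mostly in the library labelled HHcy.

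In WD 1 cell held 489 of 538 UMIs of Spp1, the macrophage product osteopontin, and 1 held 145 of 169 UMIs of Ccl5, a T and NK cell chemokine. Cd9, with 0.86 over Ctrl, was at -0.09 without the top 2% of cells. In Ctrl 1 cell held 164 of 335 UMIs of Pf4, a platelet chemokine, and 69.7% of Il1b, 74.8% of Cxcl2, 74.2% of Hist1h2ap and 81.6% of Hist1h2ae UMIs lay in 10 of 535 cells. Of the genes past the fold for the library labelled HHcy over Ctrl, the same 172 of 264 higher and 401 of 707 lower remained past it without the top 2% of cells, and for WD over Ctrl 117 of 223 and 131 of 248.

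**Figure D5:**
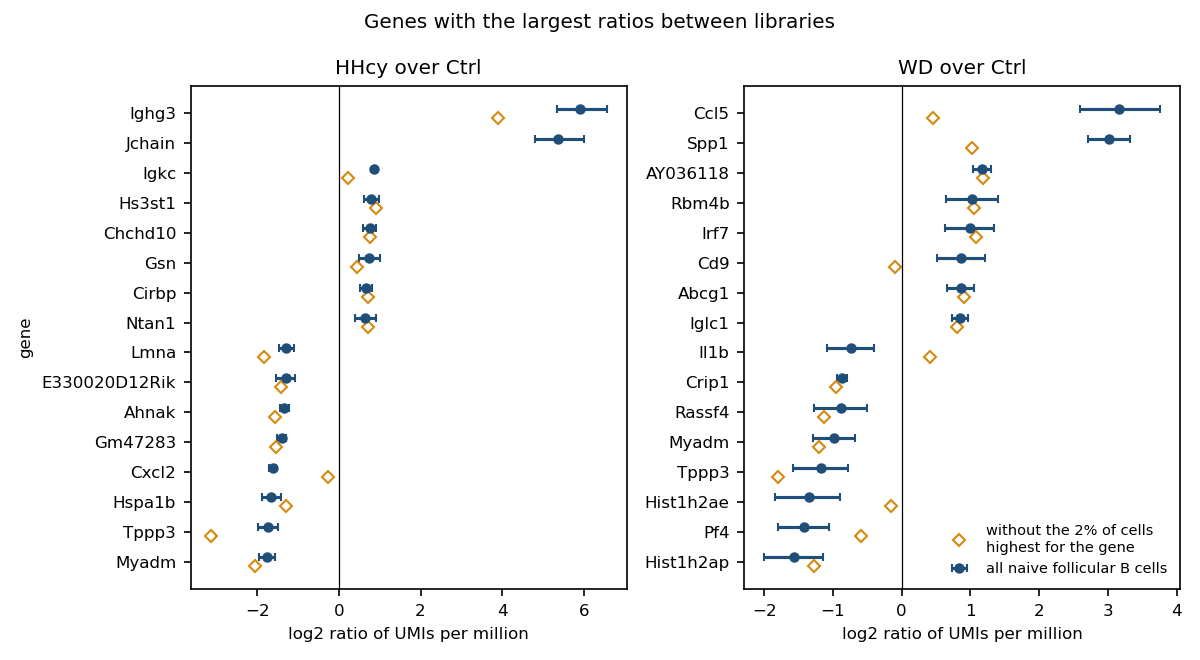
Log2 ratio of CPM in naive follicular B cells (x axis) for the genes with the largest ratios (y axis), the library labelled HHcy over Ctrl on the left and WD over Ctrl on the right. Circles use all cells with exact 95% intervals for counting error; diamonds leave out the 2% of cells of each library with the most UMIs of the gene (none is drawn for Jchain, which then had no UMI in Ctrl). Ighg3, Tppp3 and Cxcl2 on the left and Ccl5, Spp1, Hist1h2ae and Il1b on the right are among the genes that move most, and Cd9 and Il1b change side.

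Set directly against WD, the library labelled HHcy was higher for Ptpn22, a phosphatase that limits antigen receptor signals, at 93.6, 103 and 62.5 CPM (log2 ratio 0.72, interval 0.47 to 0.97), and Kcnq1ot1, a long non-coding RNA (log2 ratio 0.69, interval 0.49 to 0.90), with 120 of 198 genes past the fold remaining so without the top 2% of cells. Hist1h2ap (1.45), Jchain, Ighg3 and Igkc were higher as well. S100a8 and S100a9, neutrophil alarmins, also stood higher. S100a9 was at 102, 113 and 66.4 CPM and found in 24.7, 56.4 and 35.9% of the cells; in macrophage barcodes the S100a9 ratio over WD was 1.95. Lower were Spp1, Cd14, Ccl5, Ccl3, Lgals3, S100a4, Cd9 and Hspa1a, of which Cd14 (-1.93), Lgals3 (-1.54) and Spp1 (-6.00) are macrophage genes. All 10 macrophage markers were detected in each library and 8 of 10 were past the fold lower in the library labelled HHcy than in WD; their part in these ratios was not tested.

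Follicular genes passed the fold about as rarely as all genes did. Over all genes the shares past it were 8.72% for the library labelled HHcy against Ctrl and 4.97% for WD against Ctrl. For the library labelled HHcy against WD the share was 7.34%. Of 14 genes 1 passed the fold in the library labelled HHcy against Ctrl, S1pr1, at 204, 131 and 166 CPM (log2 ratio -0.64, interval -0.76 to -0.52), and 0 did in WD, with medians of -0.17 and 0.02. The ratio of Cr2 to its Ctrl level was -0.24 (-0.42 to -0.06) in WD and 0.02 (-0.10 to 0.13) in the library labelled HHcy, intervals that leave out a 1.5-fold difference. Against WD the library labelled HHcy had 1 past the fold, Ccr7, at -0.63 (-0.72 to -0.55). Fcmr was at 513, 602 and 646 CPM. The B1 list moved more: 6 of 12 genes passed the fold downwards in the library labelled HHcy against Ctrl and 0 upwards. Its median was -0.58, beside 6.35% lower and a median of -0.07 over all genes. The 90th percentile of its share of a cell's UMIs was 0.110%, 0.0520% and 0.0908%. The part of B1-like cells in the ratios of other genes was not tested. Of 16 homing and egress genes 4 passed the fold downwards in the library labelled HHcy against Ctrl and 1 upwards, with a median of -0.25. Cd44, the hyaluronan receptor, was lower, at 133 (122 to 145), 59.6 (55.9 to 63.6) and 103 (90.01 to 117) CPM, a log2 ratio of -1.16. So were S1pr1, Itgb1, the integrin beta-1 chain, at -0.61 (-0.84 to -0.38), and Cxcr3, a chemokine receptor with 15 and 25 UMIs, at -1.31 (-2.29 to -0.28). Ccr6, a chemokine receptor, was higher, at 0.59 (0.41 to 0.77). The follicular list took a median of 0.635%, 0.587% and 0.642% of a cell's UMIs, with a 10th to 90th percentile from 0.393% to 0.964% in Ctrl.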

How the data were processed

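The authors deposited raw UMI counts per gene and barcode (32285 genes), 1 matrix for each of 3 libraries. The submitters' processing notes name Cell Ranger 2.2.0 and mm10, while per the file headers Cell Ranger 4.0.0 wrote the matrices; the annotation is not given in the sources used here. No column came from outside the series, and no doublet caller was run; a marker rule stood in as an alternative.

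Counts were read in Python 3.11.15 (numpy 2.4.6, scipy 1.17.1, pandas 2.3.3; figures in matplotlib 3.10.9). Counts of naive follicular and other B cells were summed per library and tested in R 4.3.3 with edgeR 4.0.16 (limma 3.58.1): TMM, filterByExpr, quasi-likelihood, library as a block, Benjamini-Hochberg adjustment, threshold 0.05. DESeq2 1.42.0 was an alternative. The genes of the rule and Ms4a1 entered the fit and the adjustment where they passed the filter, and were then left out of the results and counts. Between libraries, CPM were compared with conditional binomial intervals, shares with Clopper-Pearson intervals and levels with Poisson intervals, at 95%. UMIs of 1 cell or library are not independent samples, so these cover counting error only. The main edgeR fit was run on simulated data with known changes first, while DESeq2 and the other alternatives were not.

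Naive follicular B cells had 3803268, 15700172 and 2318792 UMIs in Ctrl, the library labelled HHcy and WD, so WD has the widest intervals. Genes named were the 12 with the largest rise and 10 with the largest fall against the other B cells (50 CPM or more, same direction in 3 libraries), the 8 with the largest ratio each way between libraries (50 CPM or more, a UMI in 5% of cells), and members of the gene lists; genes of the rule, mitochondrial, ribosomal protein and immunoglobulin variable genes were left out of the ranking. The cells, lists and comparisons were chosen with earlier results of these data known. Detection shares were taken after thinning each barcode to 2000 UMIs, which left out 5, 4 and 5 naive follicular B cells. Promoter sequences are from RefSeq (GRCm38.p6). Results of some single genes are not reported here; they remain in the counts and medians of their lists.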

Additional observations from a re-analysis of the deposited data

How the results depend on the processing

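The share of naive follicular B cells among B cells stayed highest in the library labelled HHcy under all 9 alternatives run. Its log2 ratio over Ctrl was 0.99 with at most 5% mitochondrial UMIs, 1.37 with 2 or more UMIs of Ighd and Fcer2a, and 1.04 with at most 12000 UMIs per barcode; over WD it was 1.19 with 2 or more UMIs and 0.75 without the exclusion. WD over Ctrl among B cells was 0.057 (-0.15 to 0.27) at 5% mitochondrial UMIs and 0.18 (-0.06 to 0.43) with 2 or more UMIs, intervals that include 0. Among kept barcodes the library labelled HHcy over Ctrl was 1.35 (5% mitochondrial), 1.70 (2 or more UMIs), 1.62 (no exclusion) and 1.33 (without barcodes with 3 or more markers of another lineage), and over WD 2.44, 2.51, 1.71 and 1.27 in that order and 2.04 at 12000 UMIs. WD over Ctrl among kept barcodes was -1.09 (5% mitochondrial), -0.082 (no exclusion) and -0.48 (12000 UMIs), and 0.064 without barcodes with other lineage markers. That last setting removed 65.0%, 64.5% and 85.2% of the kept barcodes of Ctrl, HHcy and WD. Most of these lay outside the B cells as defined here, so the shares of that setting are over another denominator. There WD over Ctrl had an interval from -0.15 to 0.28, so the place of WD among kept barcodes depended on which barcodes were counted.

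Between naive follicular and other B cells, the counts of genes higher and lower were 628 and 847 by DESeq2, 660 and 786 without the library block, 521 and 694 at 2000 UMIs per cell, and 771 and 1050 at 12000 UMIs. Leaving out 1 library at a time gave 995 to 1365 higher and 1267 to 1462 lower. Of the 22 named genes, Jchain turned to 0.26 without barcodes with other lineage markers; Jchain and Slpi missed the threshold without the block, and Igha at 12000 UMIs. In the other 282 of 286 gene and setting pairs the direction and call stayed.

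With TMM scaling the library labelled HHcy had 408 genes higher and 466 lower than Ctrl, and 340 higher than WD. At 2000 UMIs per cell WD had 151 lower than Ctrl, and the library labelled HHcy 130 higher than WD; without the top 2% of cells it had 342 higher than WD. The median of costimulation genes, the library labelled HHcy over Ctrl, turned from -0.34 to 0.047 at 2000 UMIs, 0.0010 with 2 or more UMIs of Ighd and Fcer2a, 0.0089 at 5% mitochondrial and 0.069 without the top 2%, and over WD from -0.40 to 0.014 at 2000 UMIs. The median of cell cycle genes, WD over Ctrl, turned from -1.11 to 0.29 at 2000 UMIs, 0.30 at 12000 UMIs and 0.10 without the top 2%, and that of the library labelled HHcy over WD from 1.39 to -0.048, -0.13 and -0.43. The immunoglobulin constant genes turned from 0.66 to -0.093 over WD without the top 2%. Il1b in WD over Ctrl turned to 0.55 with 2 or more UMIs and 0.41 without the top 2%, Spp1 to -0.84 at 12000 UMIs and Cd9 to -0.095 without the top 2%; Ccl5, the library labelled HHcy over WD, turned to 1.36 and 0.38 with 2 or more UMIs and at 12000 UMIs. The cause was not tested.

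The limits of 12000 UMIs and of the top 2% of cells were chosen after the data were seen. Between groups no paired analysis was possible because each group had 1 library; naive follicular and other B cells were compared within libraries. Depth limits genes under 20 UMIs over both libraries and, above all, WD.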
